A study of Mus musculus with 4 samples.

Results

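SR proteins and heterogeneous nuclear ribonucleoproteins (hnRNPs) are the main families of RNA-binding proteins that decide which exons are kept in an mRNA. Their genes were taken as the protein-coding genes whose symbol is Srsf followed by a number or begins with Hnrnp, together with Tra2a, Tra2b and Ptbp1. The rule gave 34 of the 50600 genes in the files: 13 SR genes (11 Srsf genes and both Tra2 genes) and 21 hnRNP genes (20 Hnrnp genes and Ptbp1), spread over 17 chromosomes. The processed pseudogenes Hnrnpa1l2-ps and Hnrnpa1l2-ps2, with 11 and 44 fragments over all libraries, fell outside it because they are not protein coding.

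RNA came from 1 group of mouse T-helper 17 (Th17) primary cells of strain C57BL/6NJ, which the labels tie to a protocol for differentiating CD4+ T cells. There were 4 libraries, numbered as biological replicates 1 to 4 and each with a biosample of its own, and the labels give no other condition, treatment or genotype. A time tag in hours in the headers of the counts is not explained by the labels and was not used. The labels give 1 donor identifier for all 4, leave age and developmental stage unknown and state no sex, and no source used here says how many animals were pooled. The label names the assay as total RNA, whereas the library protocol it links to is named for polyadenylated RNA. With 1 group, the values below compare genes within libraries and libraries with each other, and an exact sign-flip test over 4 libraries cannot give a p below 0.125, so levels are described without a test.

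Libraries held 24696730 to 37025016 fragments, with replicate 2 the shallowest. All 11 Th17 markers on the list used here reached 1 TPM (a gene's fragment count divided by its exon length, then scaled so that a library sums to 1000000) in each of the 4. They included the transcription factor Irf4 at a mean of 1647 TPM and the receptor chain Il23r, the lowest of the list, at 2.14 TPM. Summed markers of other cells stayed low: 0.779 to 1.57 TPM for 6 B-cell genes, 3.98 to 6.38 TPM for 7 myeloid genes, 6.03 to 8.76 TPM for 6 genes of CD8 T and NK cells, 4.41 to 5.93 TPM for 5 epithelial and stromal genes, and 0 for 5 erythroid genes. Libraries differed in sex-linked genes, although the labels give them 1 donor identifier. Xist was at 186 and 161 TPM in replicates 1 and 2 and at 0.687 and 0.721 TPM in replicates 3 and 4, while Ddx3y, on chromosome Y, measured 0.442 and 0.446 TPM in the former and 88.6 and 83.2 TPM in the latter.

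An SR protein joins RNA recognition motifs to a tail rich in arginine and serine. It typically binds enhancer sequences in exons and helps the spliceosome to recognise the neighbouring splice sites, and kinases of the SRPK and CLK families control it by phosphorylating the tail. hnRNPs coat nascent transcripts through motifs of several kinds and often, though not always, act against SR proteins by keeping exons out. In T cells, alternative splicing alters surface receptors and signalling proteins, of which the choice of Ptprc (CD45) exons under Hnrnpl and Hnrnpll is the classic case.

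These genes were abundant in Th17 cells. A level of at least 1 TPM in every library was reached by 33 of the 34, beside 44.8% of the 21764 protein-coding genes, and a level of at least 100 TPM by 30, beside 8.72%. The median member was at 340 TPM. At least 500 TPM was found throughout for 10 members and at least 1000 TPM for 3, and 23 stood among the 1000 highest protein-coding genes by mean TPM. Srsf12 alone was below 1 TPM, and Hnrnpll, Hnrnph3 and Hnrnpr were the others below 100 TPM. With the longest annotated protein-coding transcript as the length in place of summed exons, 30 members again reached 100 TPM, but 29 were shared: Hnrnpll entered at a mean of 167 TPM and Hnrnph2 left at 84.6 TPM.

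**Figure D1:**
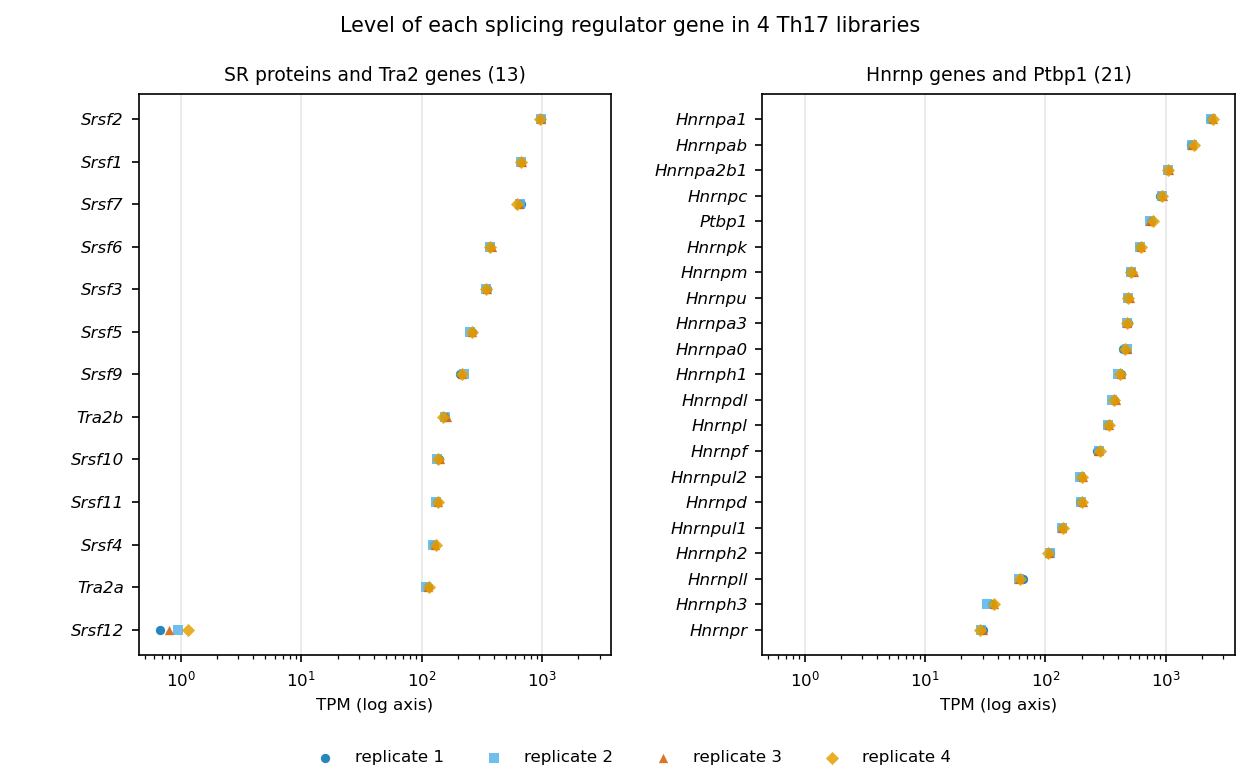
TPM (log axis) of the 13 SR and Tra2 genes (left) and the 21 Hnrnp genes and Ptbp1 (right), 1 symbol per library. Points of one gene lie nearly on top of each other except for Srsf12, whose 4 values run from 0.671 to 1.14 TPM, while genes span from Srsf12 at a mean of 0.887 TPM to Hnrnpa1 at 2410 TPM.

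Together the 34 genes took 2.01% ± 0.0227 (SD, n = 4) of all fragments and 1.57% ± 0.0178 of all TPM. The SR genes summed to 4167, 4143, 4198 and 4098 TPM in replicates 1 to 4 (4152 ± 42.3, SD, n = 4). The hnRNP genes summed to 11333, 11393, 11677 and 11654 TPM (11514 ± 177). The hnRNP sum was therefore 2.72, 2.75, 2.78 and 2.84 times the SR sum in the 4 libraries. Replicates 3 and 4, the libraries with Ddx3y, had the higher hnRNP sums, whereas for the SR sum one of them was the highest and the other the lowest. The part of sex or of any other difference between these libraries in that order was not tested. The 4 highest members, Hnrnpa1, Hnrnpab, Hnrnpa2b1 and Srsf2, held 38.8% ± 0.276 of the members' TPM.

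Among the SR genes, Srsf2 (SC35, which binds exonic enhancers) was the highest, at chr11:116849901-116853094 on the minus strand of mm10. It measured 974, 985, 986 and 956 TPM in replicates 1 to 4 (975 ± 13.8, SD, n = 4), which placed it at rank 126 among protein-coding genes. Srsf1, the founding member of the family, followed at 670 ± 8.34 TPM, and Srsf7, which also takes part in mRNA export, at 645 ± 19.1 TPM. The 4 libraries of these last 2 genes overlapped, although Srsf1 was the higher in each. Srsf2 stood above both in every library.

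The remaining SR genes formed a graded series. Srsf6 was at 370, 368, 383 and 369 TPM in replicates 1 to 4 (373 ± 7.06, SD, n = 4), with replicate 3 above the rest. Srsf3 was at 346 ± 2.06 TPM and Srsf5 at 259 ± 4.26 TPM. Srsf9, the nearest relative of Srsf1, was at 215 ± 6.36 TPM, so that Srsf1 was 3.11 ± 0.107 times as high. Tra2b, which binds enhancers rich in purines, was at 157 ± 4.60 TPM and its paralogue Tra2a at 112 ± 2.79 TPM. Srsf10, known as a splicing repressor when it loses its phosphates, was at 137 ± 3.68 TPM, Srsf11 at 134 ± 2.79 TPM and Srsf4 at 128 ± 3.89 TPM. Neighbours among these last 3 overlapped over the 4 libraries.

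Srsf12 was the exception in the family. This paralogue of Srsf10, at chr4:33208991-33233340 on the plus strand, had only 23, 22, 24 and 39 fragments in replicates 1 to 4, or 0.671, 0.954, 0.788 and 1.14 TPM (0.887 ± 0.202, SD, n = 4). Srsf10 was 206, 139, 180 and 120 times as high in the same libraries, a ratio with few fragments in its denominator (mean 161 ± 38.7, and 281 ± 67.4 with transcript lengths). Every other SR gene was above 100 TPM in every library.

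Many of these genes carry what is known as a poison exon, an alternative exon with an early stop codon that sends the transcript to nonsense-mediated decay, by which SR and some hnRNP proteins are known to limit their own amount. A transcript of the decay class was annotated in GENCODE M21 for 11 of the 13 SR genes (84.6%) and 11 of the 21 hnRNP genes (52.4%). The class was annotated for 31.2% of the 9761 protein-coding genes that reached 1 TPM throughout the libraries and for 26.7% of the 1898 that reached 100 TPM. Transcripts with a retained intron were annotated for 25 of the 34 members (73.5%), beside 62.4% and 65.2%. These are properties of the annotation and not measurements of RNA.

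In 10 members (7 SR genes and 3 hnRNP genes) the annotated stop of such a transcript lay in an exon that is outside the coding sequence of every coding transcript. There were 11 of these exons, of 70 to 460 bases. The search was made over the members only, so it does not show how common such exons are in other genes. The sequences below run, in the direction of the transcript, from the start of the exon to its stop codon, in capitals, and are shown because these exons count towards the gene's fragments and its length whether or not the transcript can make protein. They are from the transcripts Srsf3-201 (chr17:29039454-29039487, plus strand), Srsf9-205 (chr5:115328347-115328428, plus), Tra2a-202 (chr6:49252965-49253108, minus), Tra2b-206 (chr16:22259181-22259261, minus), Hnrnpl-213 (chr7:28817335-28817393, plus) and Hnrnpll-203 (chr17:80044976-80045022, minus), all on mm10.
Srsf3: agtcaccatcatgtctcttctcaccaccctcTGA
Srsf9: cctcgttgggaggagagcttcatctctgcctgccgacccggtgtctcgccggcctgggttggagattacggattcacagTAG
Tra2a: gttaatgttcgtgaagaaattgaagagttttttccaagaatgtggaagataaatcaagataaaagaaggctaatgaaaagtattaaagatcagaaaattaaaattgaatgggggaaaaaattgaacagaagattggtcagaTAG
Tra2b: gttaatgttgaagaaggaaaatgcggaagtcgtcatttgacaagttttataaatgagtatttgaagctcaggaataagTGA
Hnrnpl: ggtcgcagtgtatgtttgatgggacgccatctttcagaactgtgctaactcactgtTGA
Hnrnpll: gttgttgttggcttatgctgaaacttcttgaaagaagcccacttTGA

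The whole exon made up 21.7% of the exon length by which Srsf9 was scaled, 8.93% for Srsf3, 5.13% for Tra2b, 4.41% for Tra2a, 1.18% for Hnrnpl and 0.711% for Hnrnpll. A further such exon of Srsf4 made up 5.81%, and that of Srsf7 was not among the exons counted. The counts are sums over all exons of a gene, so how often any of these exons was included was not measured.

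Among the hnRNP genes, the A/B family led. Hnrnpa1, whose protein represses exons and shifts the choice of 5′ splice site against Srsf1, lies at chr15:103240432-103246692 on the plus strand. It measured 2348, 2360, 2455 and 2477 TPM in replicates 1 to 4 (2410 ± 65.7, SD, n = 4) and ranked 31 among protein-coding genes. Hnrnpab, at chr11:51600100-51606847 on the minus strand, measured 1602, 1637, 1650 and 1705 TPM (1648 ± 42.6). Replicates 3 and 4 were the 2 highest libraries for each of these genes, as for the hnRNP sum. Hnrnpa2b1, a close relative of Hnrnpa1 at chr6:51460932-51469894 on the minus strand, measured 1044, 1040, 1069 and 1032 TPM (1046 ± 16.3). Its ranges did not overlap those of either gene above it or of Srsf2 below it. The other A-type genes were lower, Hnrnpa3 at 479 ± 1.54 TPM and Hnrnpa0 at 461 ± 16.4 TPM.

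The order of Hnrnpa1 and Hnrnpa2b1 depended on the length each count was divided by. Hnrnpa1 was 2.30 ± 0.0674 times as high as Hnrnpa2b1 with the summed exon length of the files, and 0.605 ± 0.0177 times as high with the length of the longest annotated protein-coding transcript. Hnrnpa1 is also one of the members with copies elsewhere. Of its 50-base words (every stretch of 50 bases in its annotated transcripts), 28.2% occurred in other genes, the most in Gm10052, a processed pseudogene on chromosome 9. The opening 120 coding bases of Hnrnpa1, which span an intron at chr15:103240514-103241184, stand unbroken and with 0 mismatches in Gm10052 at chr9:123690073-123690192 on the minus strand. They are shown because a read lying wholly inside them cannot by itself tell the gene from its copy, although the other end of its fragment may.
Hnrnpa1 and Gm10052: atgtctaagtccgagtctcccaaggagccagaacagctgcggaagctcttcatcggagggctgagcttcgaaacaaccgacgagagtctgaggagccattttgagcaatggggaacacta

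Gm10052 received 587 fragments over the 4 libraries and Hnrnpa1 179570. No source used here states whether fragments that align to more than 1 place were left out, so the Hnrnpa1 value may be too low by an amount that was not measured.

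The related genes that bind AU-rich sequence, Hnrnpd (AUF1) and Hnrnpdl, were at 199.9 ± 5.11 and 371 ± 11.7 TPM. Hnrnpab was 8.25 ± 0.196 times and Hnrnpdl 1.86 ± 0.0517 times as high as Hnrnpd. With transcript lengths Hnrnpdl was 3.01 ± 0.0838 times as high as Hnrnpd. Hnrnpc, which binds runs of uridine and can keep U2AF2 from cryptic exons, was at 923 ± 18.2 TPM and 3.21 ± 0.113 times as high as its relative Raly (1.77 ± 0.0622 with transcript lengths). Hnrnpk, which binds cytidine-rich RNA, was at 618 ± 8.01 TPM. The related gene Pcbp1 was 1.81 ± 0.0401 times as high as Hnrnpk with exon lengths, but 0.952 ± 0.0212 times with transcript lengths.

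Genes of the H/F family, whose proteins bind runs of guanosine, differed widely. Hnrnph1 was at 416 ± 10.2 TPM and Hnrnpf at 275 ± 5.39 TPM. Hnrnph3 was at 35.9 ± 2.25 TPM, so that Hnrnph1 was 11.6 ± 0.540 times as high with exon lengths and 19.7 ± 0.913 times with transcript lengths. The 4 libraries of Hnrnph3 ran from 32.8 to 37.7 TPM. X-linked Hnrnph2 was at 108.5, 108.1, 106.5 and 104.9 TPM in replicates 1 to 4 (107 ± 1.61). Replicates 1 and 2, which hold Xist, were the higher. The part of sex or of chromosome X in that order was not tested. Hnrnph1 was 3.89 ± 0.123 times as high as Hnrnph2. The 2 genes code for very similar proteins, and their opening 120 coding bases are set out to show how far their reads can be told apart, with the differing bases in capitals. The stretch lies at chr11:50378331-50379490 on the plus strand for Hnrnph1, across an intron, and at chrX:134604908-134605027 on the plus strand for Hnrnph2.
Hnrnph1: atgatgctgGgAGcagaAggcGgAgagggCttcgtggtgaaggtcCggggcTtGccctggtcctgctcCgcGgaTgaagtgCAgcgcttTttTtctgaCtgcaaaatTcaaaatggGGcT
Hnrnph2: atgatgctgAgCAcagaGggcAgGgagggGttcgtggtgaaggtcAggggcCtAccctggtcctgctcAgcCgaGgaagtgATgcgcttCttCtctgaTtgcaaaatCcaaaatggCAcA

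These stretches differed at 22 of 120 bases and shared no identical run longer than 15 bases. No 50-base word was shared by any pair of the 34 members, so at that length no stretch of one matched another.

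Ptbp1, which binds pyrimidine tracts and represses neural exons, was at 755 ± 15.7 TPM. It was 5.32 ± 0.212 times as high as Ptbp3 and 51.9 ± 5.14 times as high as Ptbp2, the neural paralogue whose transcript Ptbp1 is known to send to decay. Hnrnpl, which binds CA repeats, was at 334 ± 3.74 TPM and 5.42 ± 0.214 times as high as Hnrnpll, the paralogue that controls Ptprc exons in activated and memory T cells. Hnrnpll measured 64.9, 60.6, 60.4 and 61.0 TPM in replicates 1 to 4 (61.7 ± 2.14). Replicate 1 was the high library, and the other 3 lay within 1 TPM of each other.

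Hnrnpu, also known as a scaffold attachment factor, was at 484, 481, 502 and 484 TPM in replicates 1 to 4 (488 ± 9.67), with replicate 3 above the rest. It was 3.54 ± 0.0892 times as high as Hnrnpul1 (2.35 ± 0.0592 with transcript lengths) and 2.44 ± 0.0314 times as high as Hnrnpul2. Hnrnpul1 was at 136.8, 136.8, 136.9 and 140.1 TPM (138 ± 1.65), with replicate 4 apart. Hnrnpul2 was at 200.2 ± 4.94 TPM, 1.45 ± 0.0357 times Hnrnpul1 with exon lengths but 0.711 ± 0.0175 times with transcript lengths. Hnrnpm, which binds GU-rich sequence, was at 517 ± 15.5 TPM. Hnrnpr, at chr4:136310942-136359447 on the plus strand, was the lowest hnRNP gene by TPM, at 30.3, 28.9, 30.2 and 28.7 TPM (29.5 ± 0.878). That place rests on its exon length, the longest of the members at 22199 bases (21452 for its longest coding transcript). It had 25463 fragments over the 4 libraries, beside 4415 for Hnrnph3, whose exon length is 3151 bases. The paralogue Syncrip was 5.22 ± 0.110 times as high in TPM as Hnrnpr.

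In the order of the 34 genes by mean TPM, 24 of the 33 pairs of neighbours had ranges over the 4 libraries that did not overlap, and 28 stood in the same order in every library. The 9 pairs within each other's spread were Srsf1 and Srsf7, Srsf7 and Hnrnpk, Hnrnpu and Hnrnpa3, Srsf6 and Hnrnpdl, Hnrnpul2 and Hnrnpd, Hnrnpul1 and Srsf10, Srsf10 and Srsf11, Srsf11 and Srsf4, and Tra2a and Hnrnph2.

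The other parts of the splicing machinery were described from lists of known genes. The core spliceosome was present throughout: each of the 33 genes had at least 10 TPM in every library, and 28 had at least 100 TPM, from Snrpc, a U1 protein, at 32.1 TPM to the Sm proteins Snrpd1 at 671 TPM and Snrpb at 796 TPM. All 24 other serine-arginine-rich splicing proteins reached 10 TPM and 12 reached 100 TPM, led by the splice-site factors U2af1 at 488 TPM and U2af2 at 421 TPM, with Sfswap the lowest at 39.4 TPM. Of 26 hnRNP-related genes, 25 reached 1 TPM and 17 reached 100 TPM. Ybx1 at 1308 TPM and Pcbp1 at 1116 TPM were the highest, Pcbp2 was at 864, Tardbp at 319, Raly at 288, Khdrbs1 at 168, Syncrip at 154, Ptbp3 at 142 and Ptbp2 at 14.7 TPM, and Ralyl had no fragment.

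Genes that modify or carry SR proteins were also measured. Of 16 kinases, phosphatases and import receptors, 15 had at least 1 TPM throughout and 6 had at least 100 TPM. The phosphatase subunit Ppp1ca was the highest at 1027 TPM, the import receptor Tnpo1 followed at 172 TPM, and Srpk3, the muscle form of the SR kinase, was the lowest with no fragment. Srpk1 was 33.5 ± 2.66 times as high as Srpk2. All 16 factors of nonsense-mediated decay reached 10 TPM, and 7 reached 100 TPM, from Upf3a at 20.3 TPM to the exon junction proteins Eif4a3 at 390 TPM and Magoh at 553 TPM.

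Splicing regulators known mainly from brain, muscle or epithelium were mostly very low or at 0. Of 25 such genes, 6 were at 1 TPM or above in all libraries and 1 of these at 100 TPM or above, whereas 11 were without a fragment. The highest were Celf1 at 204 TPM and Mbnl1 at 64.5 TPM, both of them widely expressed, and Khdrbs2 was among those at 0. Of 14 T-cell genes known for regulated splicing, all reached 1 TPM and 10 reached 100 TPM. Pkm, whose exon choice is governed by Ptbp1, Hnrnpa1 and Hnrnpa2b1, was at 2032 TPM, Cd6 at 1342 TPM and Fas, the lowest, at 11.2 TPM. Isoforms of these genes were not measured by counts per gene.

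Levels varied little between replicates. The coefficient of variation over the 4 libraries was below 5% for 32 of the 34 members and below 3% for 28. Its median over the members was 2.46%, beside 5.08% over the 11847 genes tested for variability and 2.65% over the 1945 of these at 100 TPM or more, so the members' spread was close to that of other genes of high level. Hnrnpa3 at 481, 479, 478 and 478 TPM (0.321%) and Srsf3 at 349, 344, 345 and 344 TPM (0.596%) varied least. Hnrnph3 (6.28%) and Srsf12 (22.8%) varied most.

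**Figure D2:**
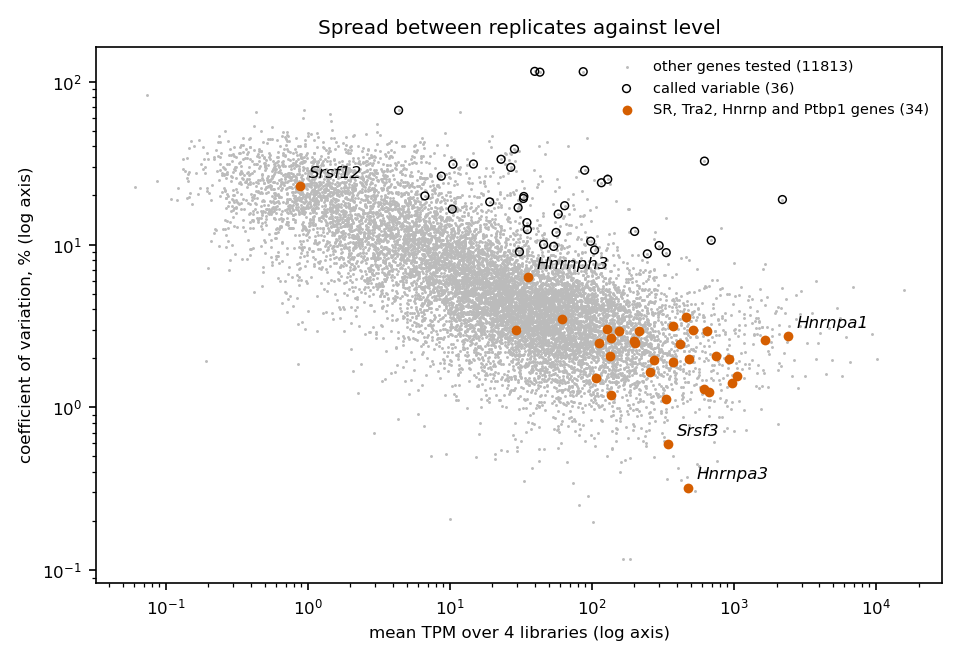
Coefficient of variation over the 4 libraries (%, log axis) against mean TPM (log axis) for the 11847 genes tested. The 34 members (filled orange) lie within the cloud of the other genes, and none is among the 36 genes called more variable than genes of their abundance (open circles).

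All 34 members passed the filter on low counts, and 0 were called more variable between replicates than genes of their abundance at an adjusted p of 0.05 (edgeR's quasi-likelihood fit across all genes, Benjamini-Hochberg adjustment), beside 0.304% of all genes tested. No member had an unadjusted p below 0.05, beside 674 of the 11847 genes tested. At that share few of 34 members would have one, so the members lie close to the background. By limma-trend, 0 members were called. Hnrnpa0 came nearest, at 439, 473, 473 and 458 TPM. Its quasi-dispersion in the fit, a measure on the scale of variance and not of SD, was 1.85 times the trend (edgeR, adjusted p = 0.993). The quasi-dispersion lay below the trend for 25 of the 34 members and for 59.3% of all genes tested. Its median was 0.591 of the trend for the members and 0.804 for all genes. None of the genes tested from the 7 lists of splicing, decay and spliced T-cell genes was called either. Of the Th17 markers, Il17f was called, at 703, 724, 589 and 759 TPM.

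Libraries did not contribute evenly to what spread there was. Replicate 3 was the highest library for 16 of the 34 members and the lowest for 1, while replicate 2, the shallowest, was the highest for 1 and the lowest for 15. Replicate 1 was the highest for 6 and the lowest for 10, and replicate 4 the highest for 11 and the lowest for 8. Replicate 3 also had the highest total of the members, at 15875 TPM, with 15500, 15536 and 15752 TPM in replicates 1, 2 and 4. The tallies of highest and lowest libraries were made over the members only, so they do not show whether other genes follow the same order. The part of depth in this order was not tested.

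**Figure D3:**
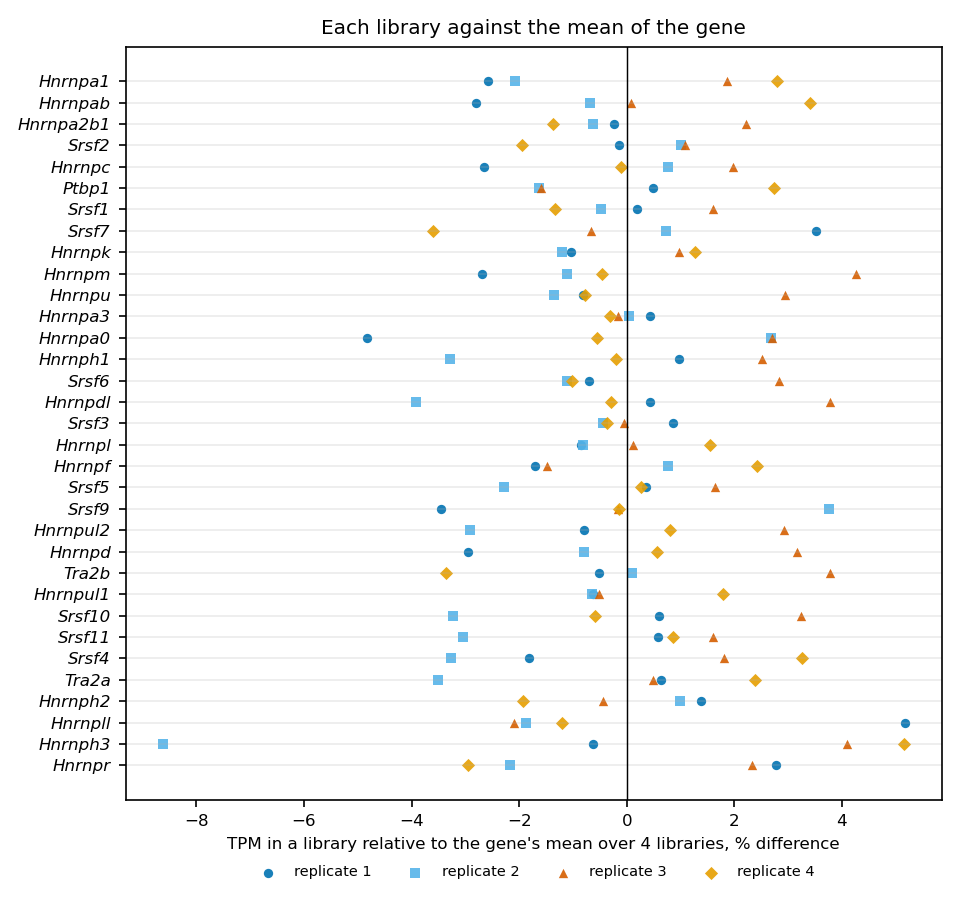
Difference (%) of each library's TPM from the gene's own mean over the 4 libraries, for 33 members in order of level, 1 symbol per library; Srsf12 is left out because its range is far wider. Replicate 3 lies furthest right for many genes (Hnrnpu, Srsf6, Tra2b) and replicate 2 furthest left for others (Hnrnph3, Hnrnph1, Hnrnpdl).

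The length used for scaling moved levels far more than the libraries did. The exon length in the files is that of all annotated exons together, and over the members its median was 1.46 times the longest protein-coding transcript, from 0.948 for Srsf7, whose longest transcript in the later annotation exceeds the exons counted, to 3.86 for Tra2a. Over 9755 protein-coding genes at 1 TPM or more the median was 1.25. With the longest transcript as the length, the median protein-coding gene moved by -0.15 on the log2 scale because each library still sums to the same total. Hnrnpa2b1 then became the highest member at 2877 TPM, ahead of Hnrnpa1 at 1740 TPM, and Tra2a went from 112 to 312 TPM, above Tra2b at 179 TPM. The other members that moved by over 1.5 times were Hnrnph1, to 724 TPM, Hnrnpl, to 536 TPM, Srsf5, to 476 TPM, Srsf11, to 264 TPM, Hnrnpul1, to 227 TPM, and Hnrnpll, as given above.

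The ratios of several relatives turned with it. Tra2b was 1.4 ± 0.0614 times Tra2a with exon lengths and 0.574 ± 0.0251 times with transcript lengths. Srsf7 was 1.87 ± 0.0473 times Srsf3 against 0.907 ± 0.0230, and Srsf6 was 1.44 ± 0.0196 times Srsf5 against 0.771 ± 0.0105. Srsf1 over Srsf9, Hnrnpl over Hnrnpll and Ptbp1 over Ptbp2 kept their direction, at 2.33 ± 0.0802, 3.22 ± 0.127 and 31.9 ± 3.16 with transcript lengths, and Hnrnph1 over Hnrnph2 was 8.55 ± 0.270. Which transcripts the cells made was not measured, so neither length is the true one for every gene.

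**Figure D4:**
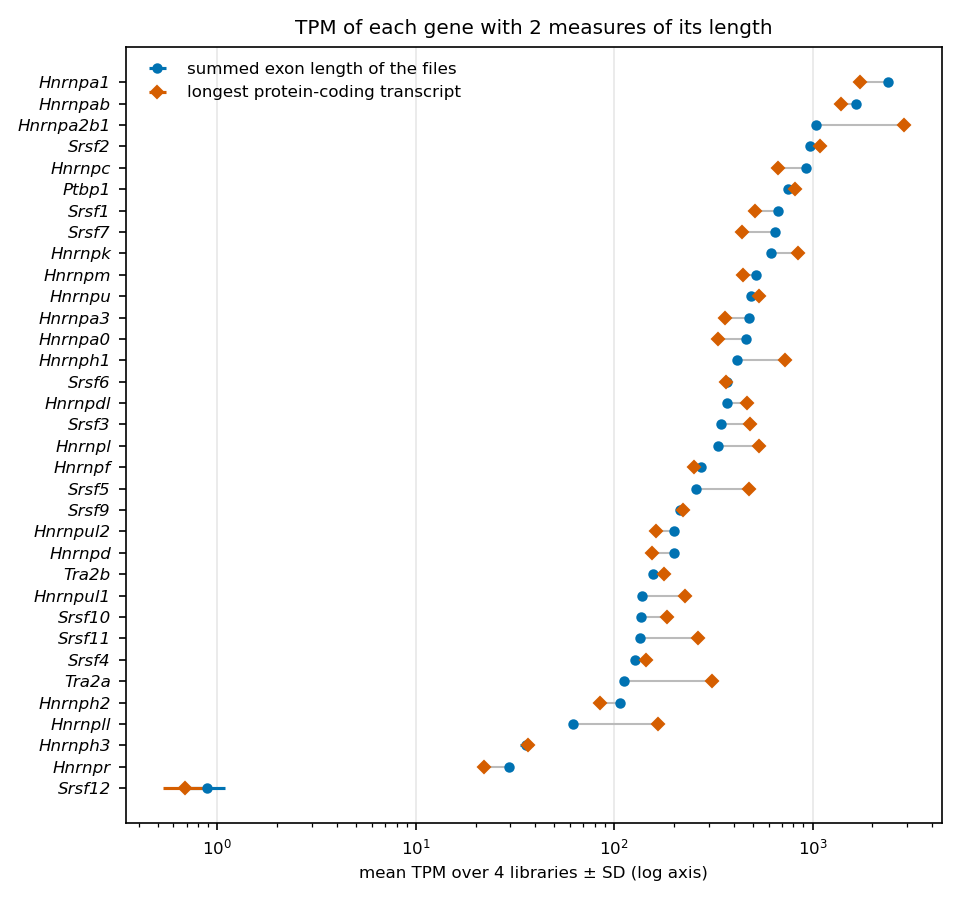
Mean TPM ± SD over 4 libraries (log axis) of each member, computed with the summed exon length of the files (blue circles) and with the longest annotated protein-coding transcript (orange diamonds). The shift is largest for Tra2a, Hnrnpa2b1 and Hnrnpll, which move right by more than their spread between libraries, and Hnrnpa2b1 passes Hnrnpa1.

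Sequence shared with other genes touched some members more than others. In 5 members (Srsf6, Srsf9, Srsf12, Tra2a and Hnrnpa0) no 50-base word occurred in another gene, and in 19 under 1% occurred in genes elsewhere in the genome. The share elsewhere was 10% or more in 8 members: Hnrnpf (43.2%), Hnrnpa1 (28.2%), Hnrnpa3 (26.9%), Hnrnph2 (15.9%), Hnrnpk (14.5%), Srsf10 (10.3%), Srsf5 (10.1%) and Srsf3, just at the limit. The copies were mostly processed pseudogenes with few fragments of their own. Gm6430 had 109 fragments beside 32466 for Hnrnpf, Gm8775 had 9 beside 18123 for Hnrnph2, and Gm12966 had 503 beside 40160 for Srsf5. Gm7964, which shares 13.3% of the words of Hnrnpk, was the highest of these copies, with 2730 fragments and 51.1 TPM beside 135165 fragments for Hnrnpk. Values of these members, and of their copies, are uncertain to the extent that fragments aligning to both were dropped or split.

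**Figure D5:**
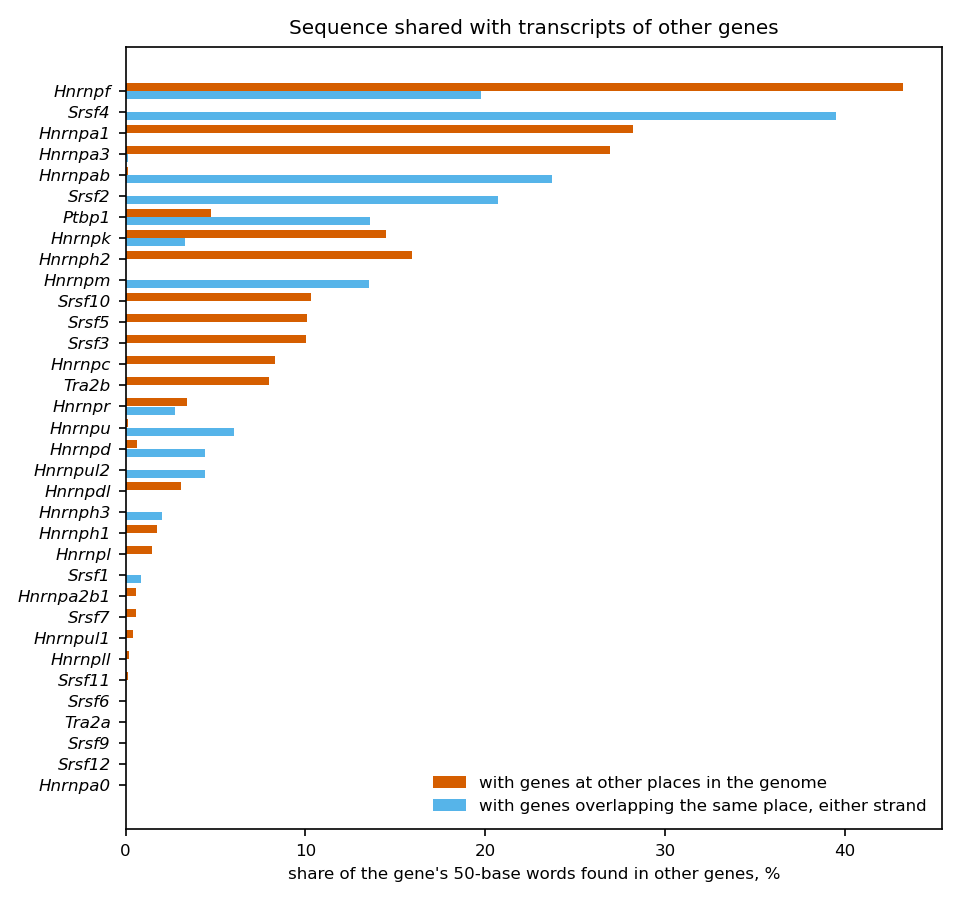
Share (%) of each member's 50-base words that occur in annotated transcripts of other genes, split into genes elsewhere in the genome (orange) and genes overlapping the same place on either strand (blue). Hnrnpf has the largest share elsewhere, 43.2%, and Srsf4 the largest with an overlapping gene, 39.5%.

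Overlap on the same strand, where fragments cannot be assigned to 1 gene, was limited to 2 members: 24.9% of the exon length of Hnrnpm with March2, which had 3292 fragments beside 94316 for Hnrnpm, and 1.06% of that of Hnrnpa3 with Gm24574. Overlap with genes on the opposite strand was larger for Srsf4 (43.0%, with Gm12992), Hnrnpab (29.1%, with Phykpl), Hnrnpf (26.5%), Srsf2 (25.3%, with Mettl23 and Mfsd11) and Ptbp1 (20.7%). These are separated by the stranded counting.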

How the data were processed

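Fragments per gene were measured in 4 RNA-seq libraries of Th17 cells. The authors' deposited values are raw fragment counts, made per the file headers with featureCounts 1.4.6-p4 from paired ends over the exons of GENCODE M13 with strand option 2. The labels give mm10 as the build. The deposited length of a gene, another column of the same files, sums its exons. How fragments with several alignments were treated, and the aligner's version, are not given in the sources used here.

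Identifiers were matched, ignoring versions, to GENCODE M21 on mm10, which gave symbols, coordinates and transcripts; 224 of 50600 found none. TPM was count over length, scaled to 1000000 per library. Members and lists were chosen with earlier results of these data known. Libraries were grouped by their labels. The test of variability used R 4.3.3 and edgeR 4.0.16 (TMM, factors 0.995 to 1.003; filterByExpr; intercept-only glmQLFit with a robust prior, 24.8 prior degrees of freedom; quasi-dispersion over trend against the F distribution, upper tail). On simulated counts over 11847 genes, 200 of them with extra spread and means above 200 fragments, it recovered 57% at a log2 SD of 0.25 and 86% at 0.5, with 6 of 149 calls false. Labels call the libraries biological replicates but give 1 donor identifier, while the sex-linked genes Xist and Ddx3y differ between libraries. The fit had no term for sex. Its p-values therefore measure the spread between these libraries, which takes in any such difference and may be partly technical.

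Sequences were read from the GENCODE M21 transcripts, with coordinates from its annotation. Named are all members, the 2 highest and the lowest gene of each list, fixed near relatives (1 is not reported here), overlapping genes and the gene sharing most words; Srpk1 and Srpk2 were also named after their values were seen. Values per library are given for the 4 highest and 2 lowest members and those with 1 library apart; those of Hnrnph2, Hnrnpa3, Srsf3 and Hnrnpa0 were added after their values were seen. Alternatives were DESeq2 1.42.0 size factors, limma 3.58.1 (limma-trend), other filters and priors, other lengths, other TPM totals and each replicate left out. Other work used Python 3.11.15, numpy 2.4.6, pandas 2.3.3 and matplotlib 3.10.9.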

Additional observations from a re-analysis of the deposited data

Results flagged for a closer look

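In 4 of the 34 members, 1 of the 4 libraries stood apart from the other 3, with its gap to the nearest library over the whole range above the 95% critical value of Dixon's ratio for 4 samples. Chance alone gives about 1 such case in 20, and 37 series of values (34 members and 3 sums) were looked at. Hnrnpul1 had a ratio of 0.950, with replicate 4 at 140.1 TPM and the others at 136.8 to 136.9 TPM. Srsf6 had a ratio of 0.894, with replicate 3 at 383 TPM and the others at 368 to 370 TPM. Hnrnpll had a ratio of 0.877, with replicate 1 at 64.9 TPM and the others at 60.4 to 61.0 TPM. Hnrnpu had a ratio of 0.864, with replicate 3 at 502 TPM and the others at 481 to 484 TPM. None of the 4 was called variable by edgeR.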

How the results depend on the processing

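No paired analysis was possible because the libraries form 1 group. With transcript lengths, 33 members had at least 1 TPM throughout the libraries and 30 at least 100 TPM. Of the same 30, 29 were kept, with Hnrnpll in place of Hnrnph2. The counts were also 33 and 30 with other TPM totals or a replicate left out. Those settings raise every TPM or drop a library, so they could not lower the counts. Under every alternative run of the test, 0 members were called variable. The lowest unadjusted p of a member was 0.0925 and the lowest adjusted p 0.928 (edgeR or limma). Over all genes, 36 were called variable, 94 without a filter, 17 with a prior fitted without robust estimation, and 15 to 37 with a replicate left out, the fewest without replicate 4; the cause was not tested. The SR sum was 4689 TPM and the hnRNP sum 12858 TPM with the longest protein-coding transcript as length, 4255 and 11801 TPM without mitochondrial and ribosomal RNA genes, and 4306 and 11942 TPM over protein-coding genes only, the last 2 because less RNA shares the same total. With a replicate left out, the SR sum was 4136 to 4169 TPM and the hnRNP sum 11460 to 11575 TPM. Shifts within 1 SD are fixed by arithmetic when 1 of 4 values is dropped, so they are no check. Of 28 ratios between relatives, 6 changed side with transcript lengths: Srsf7 to Srsf3 (0.907), Srsf6 to Srsf5 (0.771), Tra2b to Tra2a (0.574), Hnrnpa1 to Hnrnpa2b1 (0.605), Hnrnpul2 to Hnrnpul1 (0.711) and Pcbp1 to Hnrnpk (0.952), each because a different length divides the same counts. Mean TPM moved by over 1 SD for 30 members with transcript lengths. Depth limits Srsf12, at 22 to 39 fragments per library.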
